A study of Drosophila melanogaster with 19 samples.

Results

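The 10 genes described here encode enzymes of glycolysis in Drosophila melanogaster, namely Hex-A, Pgi, Pfk, Tpi, Gapdh1, Gapdh2, Pgk, Pglym78, Eno and Pyk (spelled PyK in the gene table). They were chosen by name, and every deposited peak that touched the dm6 span of a gene, extended by 1 kb to each side, was assigned to it. All 10 were found in the gene table, 9 by symbol and Pyk by a synonym, among 13946 protein-coding genes on 7 chromosomes. Their windows held 159 of the 82060 peaks in the series.

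Glycolysis turns glucose into pyruvate in the cytosol and yields ATP and NADH on the way. The upper steps spend ATP to phosphorylate the sugar, and the lower steps, from the glyceraldehyde-3-phosphate dehydrogenases to pyruvate kinase, recover it. Growing cells in culture rely on this route for energy and for building blocks, and in the fly the genes are known to be switched on together in the embryo by the nuclear receptor ERR.

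Each library was made from nuclei of S2-DRSC cells (S2-DSRC in the labels), a cultured line derived from Drosophila embryos and known for its hemocyte-like features. Treated nuclei were held for 20 min at 37 °C with an N6-adenine DNA methyltransferase, an enzyme that marks adenines in DNA that chromatin leaves within reach, and an antibody against the mark then enriched the DNA that carried it. The 17 treated libraries cover 5 enzymes. Hia5 was used at doses of 0.6, 2, 6, 20, 60 and 200 U. EcoGII was used at 0.6, 2 and 6 U, as was Btr192IV, while EcoGI had doses of 0.6 and 2 U, and Hin1523 a dose of 2 U. The same immunoprecipitation of untreated cells and a DNA input served as the 2 controls. A pair of replicates exists for Hia5 2 U and for Hia5 6 U, and the other 15 of the 17 groups are 1 library, with no error between samples. The labels do not say that replicates came from separate cultures, so the p-values below rest on a spread among libraries that may be technical. All samples come from 1 cell line, and peaks do not measure RNA, so neither expression of these genes nor the identity of the line was checked here.

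The shortest treated list, of Hia5 60 U, had 772 peaks and the longest, of EcoGII 6 U, had 13395, beside 1974 in untreated cells and 32 in the input. Relative depth, read from the smallest step between peak heights, lay between 7.28 and 25.5 in treated libraries (the latter in EcoGII 6 U), at 11.3 for untreated cells and at 0.673 for the input. A list holds called peaks only, so a gene without a peak is a gene at which none passed the authors' threshold, which is not the same as no methylation. Heights are the authors' own values. They were turned into a percentile within each list, 100 being the highest peak, or into a rank, 1 being the highest, and a percentile depends on how many low peaks a list holds.

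Pgk, Tpi and Hex-A were the glycolysis genes marked in the most libraries. A peak was present at Pgk (phosphoglycerate kinase, the first ATP-yielding step) in 17 of 17 treated libraries. Tpi (triose phosphate isomerase) had one in 14, Hex-A (hexokinase, the entry step) in 13, and both Pfk (phosphofructokinase, the committed step) and Pyk (pyruvate kinase, the last step) in 11. Fewer libraries marked Pglym78 (phosphoglycerate mutase), with 7, Eno (enolase), with 4, and Gapdh1, with 3. Gapdh2, which like Gapdh1 encodes a glyceraldehyde-3-phosphate dehydrogenase, and Pgi (glucose-6-phosphate isomerase) had a peak in 1 library each. Genes of the lower and of the upper steps thus stood at both ends of this order. No window of the 10 genes held a peak of untreated cells or of the input. The nearest untreated peak lay 9.80 kb from Pfk and at least 23.0 kb from the other 9 genes.

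**Figure D1:**
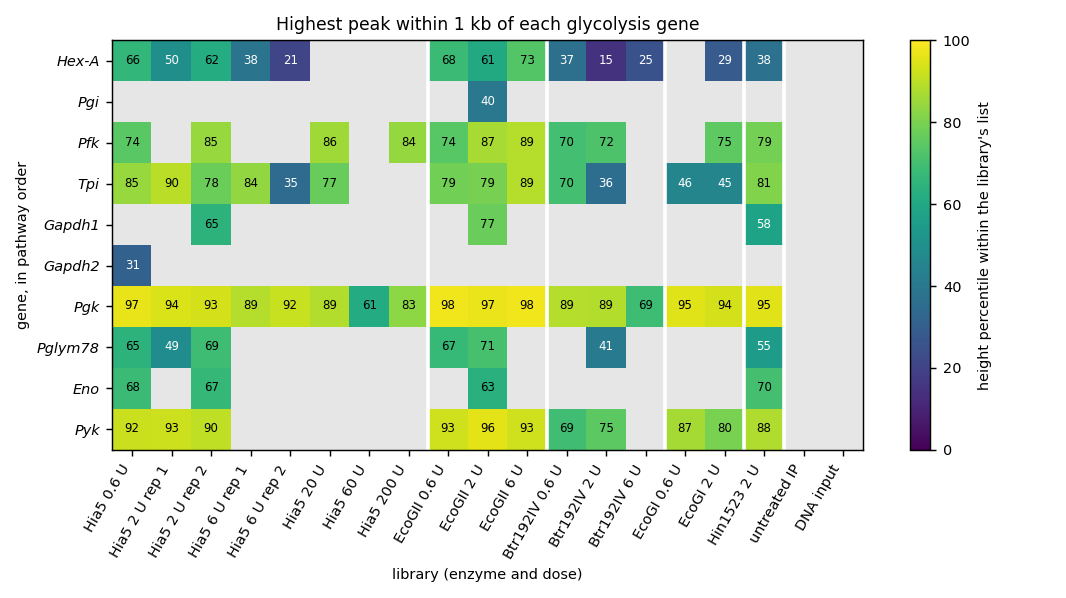
Height percentile of the highest peak in the window of each glycolysis gene (rows, in pathway order) in each library (columns); grey cells are libraries with no peak there. Pgk is filled in all 17 treated libraries, Gapdh2 and Pgi in 1 each, and both control columns are empty.

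In all, 82 of the 170 pairs of a glycolysis gene and a treated library had a peak, which is 48.2%. Over all protein-coding genes 20.1% of such pairs had one. The glycolysis genes were longer than the typical gene, with a median span of 3655 bp against 2161 bp, and a longer window holds more peaks. With no extension of the span, which leaves the difference in span length in place, the shares were 47.1% and 14.2%. None of these shares allows for length. Every one of the 10 genes had a peak in at least 1 treated library, as did 56.2% of protein-coding genes. A peak in at least 9 treated libraries was found at 5 of the 10 genes and at 16.1% of protein-coding genes. A peak in all 17 was found at 0.954% of protein-coding genes, 133 genes in number, of which Pgk is 1. Since the 10 genes were chosen with earlier results of these data known, these shares are descriptions and no test was made.

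Library by library, the number of marked glycolysis genes was 9 of 10 in EcoGII 2 U, where 36.4% of protein-coding genes had a peak, and 8 in Hia5 0.6 U (38.7%), Hia5 2 U replicate 2 (27.5%) and Hin1523 2 U (27.4%). Btr192IV 2 U and EcoGII 0.6 U marked 6 each, against 15.1% and 32.7% of genes. There were 5 in Hia5 2 U replicate 1 (26.5%), EcoGII 6 U (37.8%), Btr192IV 0.6 U (18.2%) and EcoGI 2 U (14.5%). Hia5 6 U marked 3 in replicate 1 (11.5%) and 3 in replicate 2 (10.1%), and so did Hia5 20 U (9.01%) and EcoGI 0.6 U (15.1%). Hia5 200 U marked 2 (11%), Btr192IV 6 U marked 2 (6.87%) and Hia5 60 U marked Pgk alone (3.16%). In the controls, where no glycolysis gene had a peak, the share of protein-coding genes with one was 5.74% for untreated cells and 0.043% for the input.

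**Figure D2:**
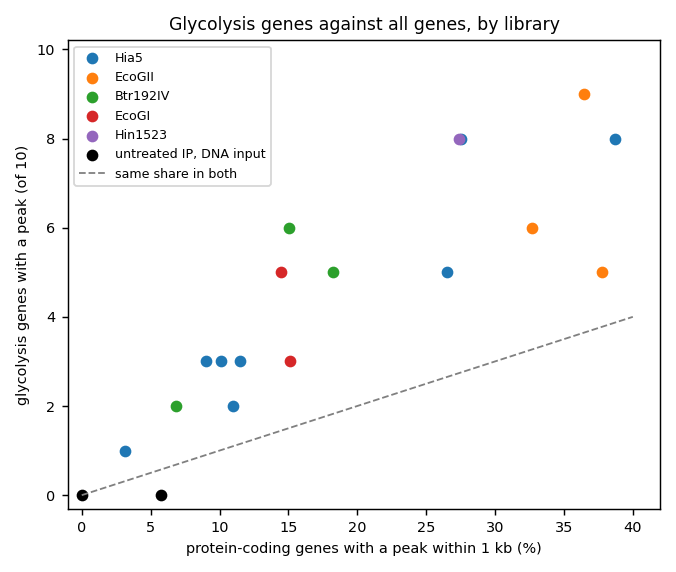
Number of glycolysis genes with a peak (vertical axis, of 10) against the percentage of all protein-coding genes with a peak within 1 kb (horizontal axis), one point per library, coloured by enzyme. Every treated library lies above the dashed line of equal shares, and EcoGII 6 U, at 37.8% of genes and 5 of 10, lies nearer to it than EcoGII 2 U, at 36.4% and 9 of 10.

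Pgk (CG3127, 2L from 2746880 to 2753068, dm6) carried 49 peaks over the treated libraries in 3 recurrent places. The most shared site, on 2L from 2752179 to 2752577, lay 5299 to 5697 bp from the left end of this gene of 6189 bp and had a peak in 17 of 17 libraries. A second site, from 2752925 to 2753240, spanned that right end and had a peak in 14. Another, from 2749301 to 2749815, lay in the gene body and had a peak in 10. The gene Bacc, whose span runs from 2752445 to 2757975, overlaps Pgk: the left end of Bacc lies inside the most shared site, and the second site lies inside Bacc. These peaks therefore cannot be assigned to Pgk rather than to Bacc.

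The height percentile of the most shared Pgk site was 96.7 with 0.6 U of Hia5, 94.1 and 93.4 with 2 U, 88.8 and 91.5 with 6 U, 88.6 with 20 U, 61.5 with 60 U and 82.9 with 200 U. EcoGII gave 97.9, 97.3 and 98.0 at 0.6, 2 and 6 U, and Btr192IV gave 88.9, 88.6 and 68.8. EcoGI gave 95.3 at 0.6 U and 93.7 at 2 U, and Hin1523 gave 95.4. The low values came from Hia5 60 U and Btr192IV 6 U, the 2 shortest treated lists, with 772 and 1425 peaks. Its rank ran from 137 (EcoGI 0.6 U) to 688 (Hia5 200 U). The site was thus among the 772 highest peaks, the length of the shortest list, in every treated library, which held for 32 protein-coding genes (0.229%). Over the 10 glycolysis genes, 31 of 170 pairs of gene and library (18.2%) had a peak that high, 17 of them at Pgk, 8 at Pyk and 3 each at Tpi and Pfk, against 3.24% over all protein-coding genes.

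Within each library the Pgk sites kept an order of height. The most shared site was higher than the right-end site in 13 of the 14 libraries with both, and equal to it in Btr192IV 2 U, where both ranked 350. It was higher than the gene-body site in 10 of 10, and the right-end site was higher than the gene-body site in 9 of 9. The right-end site was missing in Hia5 60 U, Hia5 200 U and Btr192IV 6 U, and the gene-body site was present in the last of these. All 10 libraries with the gene-body site belonged to the later library numbers described below. The sixth column of each list gives a position inside the peak, taken here as its summit although the files do not name it. Summits of the most shared site lay 5460 to 5570 bp from the left end of Pgk, with a spread of 36.8 bp (SD, n = 17 libraries), and those of the right-end site 6190 to 6230 bp from it (SD 16.9 bp, n = 14).

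EcoGII 6 U, the longest list, differed from the rest at this gene. It had 10 peaks in the Pgk window, where no other library had more than 4. Its gene-body peak spanned 500 bp at the 91.6 percentile, while the other 9 lay between 45.5 and 73.7. Further EcoGII 6 U peaks, at percentiles from 34.1 to 70.3, filled places where at most 1 other library, EcoGII 0.6 U, had a peak.

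**Figure D3:**
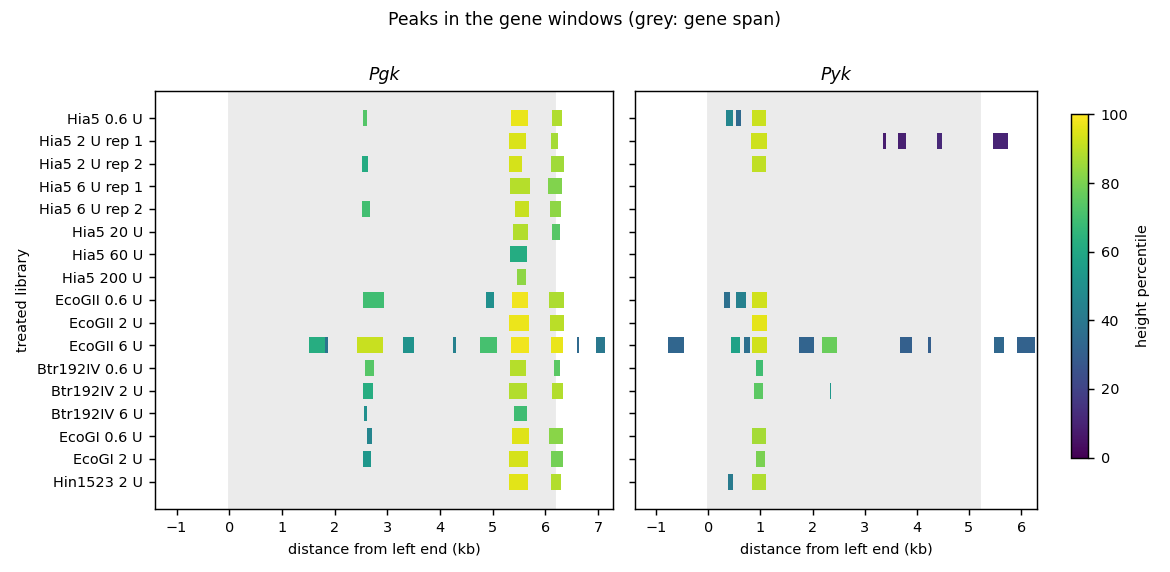
Peaks in the windows of Pgk and Pyk by treated library (rows), drawn by distance from the left end of the gene in kb; the grey band is the gene span and the colour is the height percentile. In Pgk a column of peaks right of 5 kb runs through all 17 libraries, and in Pyk a column near 1 kb runs through 11, while EcoGII 6 U adds scattered peaks in both genes.

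Pyk (CG7070, 3R from 22367536 to 22372746) had its recurrent site inside the gene, 825 to 1124 bp from its left end, on 3R from 22368361 to 22368660. It was present in 11 libraries, and no other gene lay within 500 bp of it. Its percentile was 92.1 in Hia5 0.6 U and 92.6 and 90.5 in the Hia5 2 U replicates, and 92.6, 95.9 and 92.8 in EcoGII at 0.6, 2 and 6 U. EcoGI gave 86.7 and 79.9 and Btr192IV 69.2 and 74.8, each with 0.6 U first and 2 U next, and Hin1523 gave 88.0. The Btr192IV values were the lowest 2. The Pyk site ranked below the most shared Pgk site in each of these 11 libraries, by least in Hia5 2 U replicate 1 (ranks 419 and 330). It was among the 772 highest peaks in 8 of the 11, with its Btr192IV 2 U peak (rank 769) level in height with the last of the 772. Yet it was missing in both 6 U replicates of Hia5, at 20, 60 and 200 U of Hia5 and at 6 U of Btr192IV. Summits fell within 954 to 994 bp from the left end (SD 15.7 bp, n = 11).

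A further Pyk site nearer the left end, 302 to 801 bp from it, had lower peaks in 4 libraries (Hia5 0.6 U, EcoGII 0.6 and 6 U, Hin1523 2 U), the highest of each at percentiles from 41.3 to 57.5. Of the other Pyk peaks, EcoGII 6 U accounted for 7, Btr192IV 2 U for 1 and Hia5 2 U replicate 1 for 4, the last between percentiles 7.91 and 11.1. The window of Pyk reaches into its neighbour CG7069 on the right, where 2 libraries had a peak.

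Tpi (CG2171, 3R from 30132981 to 30134599) had a single site, on 3R from 30134061 to 30134520, 1080 to 1539 bp from the left end of this gene of 1619 bp. The left end of AdoR, an adenosine receptor gene, lies 336 bp beyond it. Its percentile was 84.5 with 0.6 U of Hia5, 89.5 and 77.6 in the replicates of 2 U, 83.6 and 35.1 in those of 6 U, and 76.6 with 20 U. The values at 6 U show how far replicates can part, since replicate 2 fell to 35.1 with a peak of 98 bp where replicate 1 had one of 333 bp. Relative depth was 11.9 in 6 U replicate 1 and 7.89 in replicate 2. EcoGII gave 78.8, 79.4 and 89.0 at 0.6, 2 and 6 U, and Hin1523 gave 81.1. Btr192IV gave 70.0 at 0.6 U and 36.0 at 2 U, and EcoGI 45.5 at each of its doses. No peak was called at Tpi in Hia5 60 U, Hia5 200 U or Btr192IV 6 U, the same 3 libraries that lacked the right-end site of Pgk.

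Hex-A (CG3001, X from 9585675 to 9589813) was marked in 13 libraries but by low peaks. Its main site, on X from 9585580 to 9585875, had a peak in 12 libraries, of which those of Hia5 2 U replicate 1, EcoGI 2 U and Hin1523 2 U began 6, 56 and 14 bp inside the gene and the others covered its left end. Its percentile there was 66.1 in Hia5 0.6 U, 37.8 and 57.5 in replicates 1 and 2 of Hia5 2 U, and 29.5 and 21.1 in those of Hia5 6 U. EcoGII gave 68.2, 60.9 and 73.3 at 0.6, 2 and 6 U, Btr192IV 36.9 at 0.6 U and 14.7 at 2 U, EcoGI 28.6 at 2 U and Hin1523 37.5. No Hex-A peak was among the 772 highest of its list. A flanking site left of the gene, on X from 9584341 to 9584817, overlapped the gene lncRNA:CR45541 and had a peak in 8 libraries. In the 7 libraries with both, the left-end site was the higher in 4 and the flanking site in 3. The highest Hex-A peak, which the comparisons below use, was the flanking one in Hia5 2 U (49.9 in replicate 1 and 62.0 in replicate 2), Hia5 6 U replicate 1 (38.3) and Btr192IV 6 U (25.3), which had no other. In the other 9 libraries it was the left-end one.

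Pfk (CG4001, 2R from 10109740 to 10117457) was marked in 11 libraries at different places. A site in the gene body, 981 to 1540 bp from the left end, had a peak in 10 libraries, the highest of each at percentiles from 49.1 (Hia5 200 U) to 87.7 (EcoGII 6 U). It joins places that several libraries marked with a pair of neighbouring peaks and that a wide peak of 452 bp covered in EcoGII 2 U. A site just beyond the right end, 84 to 358 bp outside the gene and overlapping its neighbour dmpd, had a peak in 6 libraries, all of Hia5, EcoGII or Hin1523, at percentiles from 73.6 to 89.0. Where both were present the right-end site was the higher in 5 of 6. Btr192IV and EcoGI had none there. Hia5 20 U and 200 U instead shared a peak farther out, 910 to 1048 bp beyond the right end, at percentiles 85.8 and 84.2, which no other library had. Counting peaks in the window as 1 gene hides this change of place, and at Hia5 20 U that flanking peak was the only one.

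**Figure D4:**
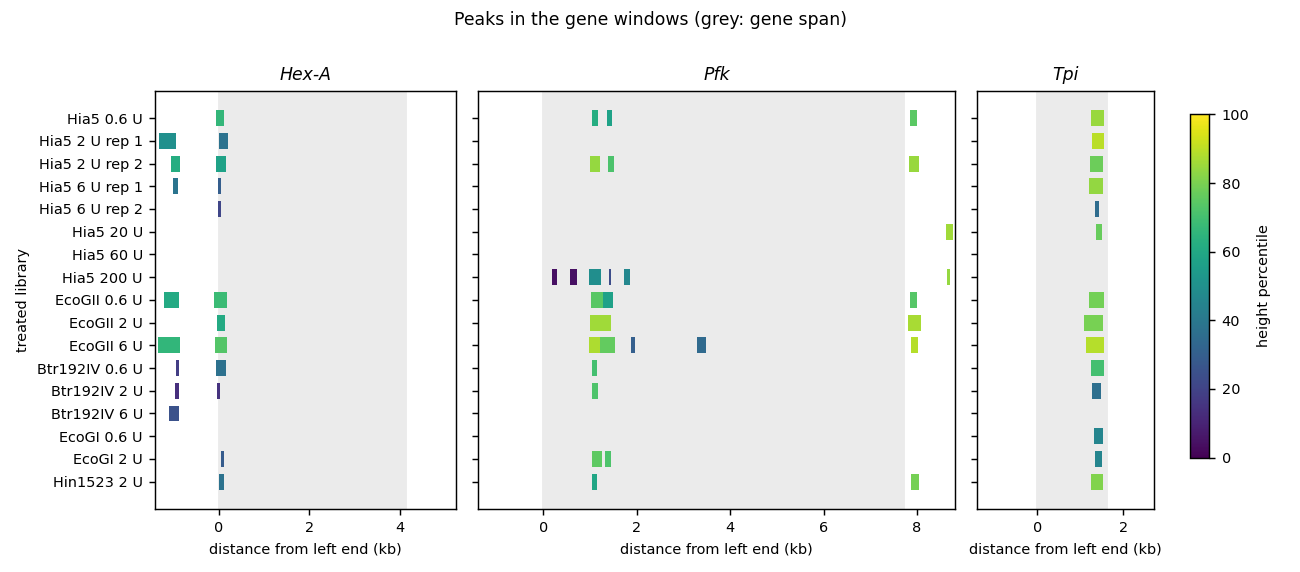
Peaks in the windows of Hex-A, Pfk and Tpi by treated library (rows), by distance from the left end of the gene in kb, with the gene span in grey and the height percentile as colour. Tpi has a column of peaks near its right end in 14 libraries, Hex-A a column at its left end in 12, and Pfk columns near 1 and 8 kb with Hia5 20 U and 200 U peaks beyond the latter.

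Pglym78 (CG1721, 3R from 29148248 to 29149901) had a site over its left end, shared with the gene CG11882, in 7 libraries. Its percentile was 64.8 in Hia5 0.6 U, 48.6 and 68.8 in the Hia5 2 U replicates, 66.9 and 70.7 in EcoGII at 0.6 and 2 U, 40.9 in Btr192IV 2 U and 55.0 in Hin1523 2 U. EcoGII 6 U, with the longest list, had no peak there. Eno (CG17654, 2L from 1724768 to 1729636) had a site 3252 to 3429 bp from its left end in 4 libraries, at 68.0 in Hia5 0.6 U, 66.8 in Hia5 2 U replicate 2, 63.5 in EcoGII 2 U and 70.4 in Hin1523 2 U. Gapdh1 (CG12055, 2R from 7791901 to 7793380) had a site 1173 to 1395 bp from its left end, near its right end and PolZ1, in 3 of those 4 libraries, at 64.7 in Hia5 2 U replicate 2, 77.2 in EcoGII 2 U and 58.2 in Hin1523 2 U. None of these 3 genes had a peak at Hia5 6 U or above.

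The remaining pair rested on 1 library each. Gapdh2 (CG8893, X from 15868145 to 15869661) had a peak of 108 bp over its left end in Hia5 0.6 U, at percentile 31.1. Pgi (CG8251, 2R from 8910900 to 8914069) had 2 peaks at and beyond its right end in EcoGII 2 U, with ranks of 4816 and 4742 in its list, the higher one inside the neighbouring gene lin. A peak seen in 1 library has no replicate check. Gapdh1 and Gapdh2 are closely similar copies, so their peaks are uncertain where reads match both.

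Only Hia5 at 2 U and 6 U allowed replicates to be set against each other. At 2 U both replicates had a peak at 5 of the 10 genes (Hex-A, Tpi, Pgk, Pglym78 and Pyk), replicate 2 alone had one at Pfk, Gapdh1 and Eno, and neither had one at Gapdh2 or Pgi. Over all protein-coding genes 74.5% of those with a peak in replicate 2 had one in replicate 1. The Pfk peak of replicate 2 was at the 84.5 percentile of its list. At 6 U the replicates marked the same 3 genes, Hex-A, Tpi and Pgk, and no others. Over all protein-coding genes 60.5% of those with a peak in 6 U replicate 1 had one in replicate 2, and 69.0% the other way. Hex-A, Tpi and Pgk also had a site in which each of the 4 libraries had a peak, against 5.71% of protein-coding genes. Among the upper 50% of heights, or in lists of equal length, Pgk alone had such a site. The library numbers in the labels fall into an earlier series of 7 (both controls and 5 Hia5 libraries, with replicate 1) and a later series of 12 (with replicate 2), which is an inference from those numbers. Every peak at Eno, Gapdh1, Gapdh2 and Pgi came from the later series. The part that this series plays in the result was not tested. Every library of the other enzymes is in the later series, beside Hia5 0.6 U and replicate 2 of Hia5 2 U and 6 U. Within Hia5 only 2 U and 6 U occur in both series. Hia5 0.6 U is in the later alone, and 20, 60 and 200 U are in the earlier alone. At these doses series and dose cannot be told apart.

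Across the Hia5 doses the number of glycolysis genes with a peak went from 8 with 0.6 U to 1 with 60 U and 2 with 200 U, beside the percentages of all genes given above. Only Pgk and Tpi had a peak in at least 6 of the 8 Hia5 libraries and were tested. In whole lists the Pgk percentile fell with log10 dose in rank (rho = -0.96, exact permutation, two-sided, p = 0.000595, adjusted over 2 genes p = 0.00119). Its linear correlation was r = -0.72 and missed the threshold of 0.05 after adjustment (exact permutation p = 0.0320, adjusted p = 0.0641). Leaving out the doses at both ends, 0.6 and 200 U, r was -0.86. In the earlier library series (2 to 200 U) the Pgk percentiles in order of dose were 94.1, 88.8, 88.6, 61.5 and 82.9. In the later (0.6 to 6 U) they were 96.7, 93.4 and 91.5. They fell with each step of dose up to 60 U in the earlier series and up to 6 U in the later. The part of the series in the relation was not tested. The Tpi correlation, over the 6 Hia5 libraries with a peak, missed the threshold (r = -0.34, exact permutation p = 0.456; rho = -0.68, p = 0.156; adjusted p = 0.456 and 0.156), and without 0.6 U and 20 U r was -0.57. With the 2 libraries that had no Tpi peak, 60 U and 200 U, placed at percentile 0, both passed (r = -0.82 and rho = -0.86, exact permutation, adjusted p = 0.0246 and 0.00863). These are the 2 highest doses, so the assigned value itself makes the correlation more negative. A missing peak is not the same as no methylation, so no decline at Tpi is concluded from it.

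The Pgk relation was not found among lists of equal length. Taking the 772 highest peaks of each list, the Pgk percentile was 65.7 with 0.6 U, 56.9 and 47.0 with 2 U, 58.7 and 76.6 with 6 U, 63.1 with 20 U, 61.5 with 60 U and 9.97 with 200 U (r = -0.56, exact permutation p = 0.146; rho = -0.23, p = 0.588). The value with 200 U was the lowest, and the others showed no order by dose. Without 200 U the correlation was positive (r = 0.16, exact permutation p = 0.771; rho = 0.16, p = 0.730; leaving it out was decided after the values had been seen). Hia5 lists went from 8080 peaks with 0.6 U to 772 with 60 U and 4054 with 200 U, so list length and the Pgk percentile in whole lists moved together, and the part of list length in the relation was not otherwise tested.

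**Figure D5:**
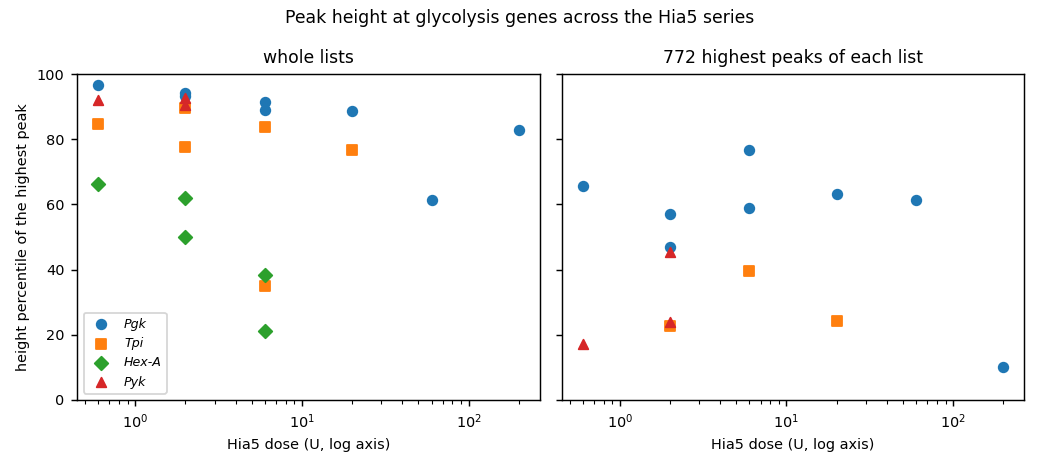
Height percentile of the highest peak at Pgk, Tpi, Hex-A and Pyk (vertical axis) against Hia5 dose in U on a log axis, one point per library, in whole lists (left) and among the 772 highest peaks of each list (right); a gene without a peak has no point. On the left Pgk goes from 96.7 with 0.6 U to 61.5 with 60 U, with 82.9 for the highest dose, and on the right it shows no order by dose up to 60 U.

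Between Hia5 6 U and 2 U the Pgk percentile was 90.2 ± 1.88 and 93.8 ± 0.55 (SD, n = 2 each), a difference of -3.57. For Hex-A it was 29.7 ± 12.2 and 55.9 ± 8.55 (SD, n = 2 each), a difference of -26.2. In both genes each 6 U library lay below each 2 U library. The 6 U lists, with 2856 and 2132 peaks, were shorter than the 2 U lists, with 5680 and 6161. The share of protein-coding genes with the same order is not given here, so the order is not read as particular to these genes. For Hex-A the values are those of different sites, and at the left-end site alone they were 25.3 ± 5.94 and 47.6 ± 13.9 (SD, n = 2 each), a difference of -22.3. For each of them the exact permutation p (two-sided) was 0.333, the smallest that 2 libraries against 2 can give, so the test cannot pass. For Tpi the groups overlapped, at 59.4 ± 34.3 and 83.6 ± 8.39 (SD, n = 2 each, exact permutation p = 0.667). For Pgk the direction turned among lists of equal length, where the difference was 15.7.

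EcoGII and Btr192IV were set against Hia5 over the shared doses of 0.6, 2 and 6 U, with doses pooled, at the genes with a peak in all libraries of both. A unit of 1 enzyme need not equal that of another. The Hia5 libraries include replicate 1 of 2 U and of 6 U, from the earlier library series, while all others compared are in the later. The part of the series in these differences was not tested. The Pgk percentile was 97.7 ± 0.40 in EcoGII (SD, n = 3) and 92.9 ± 2.95 in Hia5 (SD, n = 5), and each EcoGII value lay above each Hia5 value. The difference of 4.79 missed the threshold (exact permutation, two-sided, p = 0.0536, adjusted over 3 genes p = 0.161). In Btr192IV it was 82.1 ± 11.5 (SD, n = 3), a difference of -10.8, which missed it after adjustment, with the highest Btr192IV value (88.9) just above the lowest Hia5 value (88.8; exact permutation p = 0.0357, adjusted over 2 genes p = 0.0714). For Hex-A, EcoGII gave 67.5 ± 6.27 (SD, n = 3) and Btr192IV 25.6 ± 11.1 (SD, n = 3), against 47.5 ± 18.3 in Hia5 (SD, n = 5). Neither difference passed (exact permutation p = 0.125 each, adjusted p = 0.188 and 0.125). The Btr192IV value at 6 U (25.3) came from the flanking site. All 3 EcoGII values came from the left-end site, as did 2 of the 5 of Hia5. At that site alone Hia5 gave 42.4 ± 18.9 (SD, n = 5), and the EcoGII difference of 25.1 also missed the threshold (exact permutation p = 0.0714, adjusted p = 0.107). The Tpi values of EcoGII, 82.4 ± 5.75 (SD, n = 3), lay within the range of Hia5, 74.1 ± 22.2 (SD, n = 5; exact permutation p = 0.768, adjusted p = 0.768). Each EcoGII list was longer than the Hia5 list at the same dose except at 0.6 U, where it held 6772 peaks against 8080. Each Btr192IV list, with 3692, 3098 and 1425 peaks in order of dose, was shorter than every Hia5 list of its dose.

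In order of dose the 10 windows held 14, 12 and 28 EcoGII peaks, at 6, 9 and 5 genes. Of the 28 peaks, 10 lay in the Pgk window and 10 in that of Pyk. The Hia5 libraries of the same doses held 14 peaks (0.6 U), 11 and 13 (2 U) and 5 and 5 (6 U). Set against the length of each list, these counts were alike, at 0.207%, 0.151% and 0.209% of the EcoGII peaks and between 0.173% and 0.235% of the Hia5 peaks. With 1 library per EcoGII dose these counts have no test.

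Other genes of sugar metabolism were read from a list of 30, all of which were found in the gene table. A peak in at least 9 treated libraries was present at 13 of them, no peak in any treated library at 6, and a peak in 1 to 8 at the other 11. Among all protein-coding genes 16.1% had a peak in at least 9. Over the list 38.8% of gene and library pairs had a peak, against 20.1% over all protein-coding genes. Spans in the list ran from 1085 bp (Pglym87) to 79715 bp (Glut1), beside a median of 2161 bp over protein-coding genes. A longer window holds more peaks, and these shares do not allow for length. Aldolase, the step missing from the 10 genes, was marked at Ald1 in 11 libraries (median percentile 41.7) and not at Ald2. Among the further copies of marked enzymes, Hex-t1, Hex-t2 (both hexokinase genes) and Pglym87 had no peak, and Hex-C had one in 1 library. The median over all protein-coding genes was 1 library, and 56.2% of them had a peak in at least 1. Ldh (lactate dehydrogenase) and Pgd (a pentose phosphate pathway enzyme) also had no peak.

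Among the marked genes of that list, Pepck1 and Pepck2, the neighbouring genes of the enzyme that leads back from oxaloacetate to sugar, had a peak in 15 libraries each, with windows that overlap, as did Glut1, a glucose transporter gene of 79715 bp. PCB (pyruvate carboxylase) and GlyP (glycogen phosphorylase) had one in 14, Gpdh1 and Pfrx in 12, Treh (trehalase) and Zw (glucose-6-phosphate dehydrogenase) in 11, Mondo in 10, and fbp (fructose-1,6-bisphosphatase) and sima (the fly HIF alpha subunit) in 9. The highest median percentiles were 90.0 at Treh, 87.3 at Pepck2 and 86.6 at GlyP. A site with a peak of each of the 4 Hia5 libraries at 2 U and 6 U was found at 5 of the 30 genes of the list, namely Pepck1, Pepck2, Pfrx, PCB and GlyP. Among all protein-coding genes 5.71% had such a site. A control peak lay in the windows of Pepck1, Glut1 and Mpc1. The share of protein-coding genes with a control peak was 5.74% for untreated cells and 0.043% for the input.

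The genes whose height percentiles over the 17 treated libraries (0 without a peak) were most like those of a glycolysis gene were named by Pearson's r, as a description. All points share their libraries, list lengths and depth. For Pgk they were Gpo1 (r = 0.97), NK7.1 (0.96) and Mhcl (0.96), for Tpi cnn (0.97), Golgin97 (0.97) and RhoGAP18B (0.96), and for Hex-A Rgk2 (0.94), lov (0.93) and hep (0.93). For Pyk they were cup, CG34310 and brwl, with r from 0.994 to 0.996, each with a peak in 11 libraries as Pyk had. The values of r were identical for cup and CG34310, both on 2L, and for cnn and Golgin97, both on 2R. Whether the genes of such a pair share the same peaks was not examined, so they may not be separate cases. Pfk had no pattern as close, with Mur2B (0.80), CG2246 (0.78) and lqf (0.78) as the nearest.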

How the data were processed

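The authors deposited 1 peak list per library, at an FDR of 5% per the file names, with start, end and height of each peak. The height is the authors' signal. Its scaling is not stated, and a peak caller is not given in the sources used here. Among the tools in the submitters' processing notes are SAMtools 1.2 and BWA 0.7.12, without their roles, and the fly build is dm6. Heights were whole multiples of 1 step in each list (tolerance 0.05 step), and the inverse of the step was taken as relative depth. That depth compares libraries and gives no read number.

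Gene spans came from a RefSeq table of the release 6 assembly, without strand, exons or sequence, so 5' and 3' ends, exons, introns, promoters and motifs were not analysed here and ends are called left and right. A peak was counted when it touched a span extended by 1 kb by at least 1 bp. Peaks of treated libraries that overlapped by at least 1 bp were merged into a site. Percentiles were taken within lists. Unless a site is named, a gene's value is that of its highest peak. Equal-length lists hold the highest peaks of each list, and where heights tied at the end, the first in the file. Groups were compared by exact two-sided permutation tests with Benjamini-Hochberg adjustment over the genes tested, at 0.05. The functions were tested on simulated data. Python 3.11.15, numpy 2.4.6, pandas 2.3.3 and scipy 1.17.1 were used. Alternatives were higher peaks, equal-length lists, other windows and overlaps, left-out libraries and paired replicates.

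All 10 genes are named. Other genes follow 3 rules: a list of 30 genes of sugar metabolism, named where marked in at least 9 libraries or in none, the 3 genes most like each gene marked in at least 9 libraries, and neighbours within 1 kb of a site. Hex-C and Mpc1 were named outside these rules, after their values were seen. The rule to print promoter sequences could not be applied. The genes, lists and tests were chosen with earlier results of these data known.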

Additional observations from a re-analysis of the deposited data

Results flagged for a closer look

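Hex-A, Tpi and Pgk were the only glycolysis genes with a peak in every Hia5 and EcoGII library at 0.6 U and 6 U. At these 3 genes the height percentile moved one way from 0.6 U to 6 U in both Hia5 replicates and the other way in EcoGII. These differences were not tested, since EcoGII has 1 library per dose. Both Hia5 differences start from the same 0.6 U library. The share of all protein-coding genes that moved this way is not given here. At Hex-A the percentile rose by 5.17 in EcoGII and moved by -27.8 and -45.04 in Hia5. The first Hia5 value sets a flanking peak against a left-end one, and at the left-end site it was -36.6. At Tpi it rose by 10.3 in EcoGII and moved by -0.893 and -49.4 in Hia5. At Pgk it rose by 0.0886 in EcoGII and moved by -7.87 and -5.21 in Hia5. The EcoGII list grew from 6772 to 13395 peaks, while the Hia5 list shrank from 8080 to 2856 and 2132. By rank, which such lengths also touch, Hex-A went from 2139 to 3549 in EcoGII and from 2707 to 1753 and 1668 in Hia5. Tpi went from 1425 to 1463 in EcoGII and from 1235 to 464 and 1367 in Hia5, and Pgk from 143 to 269 in EcoGII and from 265 to 317 and 181 in Hia5. The EcoGII ranks thus became lower at all 3 genes. In equal-length lists, where Pgk alone had all values, its percentile turned direction, moving by -16.5 in EcoGII and by -6.93 and 10.9 in Hia5.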

How the results depend on the processing

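The count of 82 gene and library pairs stayed within 1.5 times under 7 alternatives (66 to 82) and was 31 in equal-length lists (18.2% of pairs, against 3.24% over all protein-coding genes). One of the 7, without Hia5 60 U and 200 U (79 pairs), was chosen after seeing the data. A site common to all 4 replicates of Hia5 (2 U, 6 U) was found at 3 genes and, among the upper 50% of heights or in equal-length lists, at 1 (Pgk). Without each replicate in turn the count was 3, which was fixed in advance and is no check. Fewer libraries cannot lower it, and neither 6 U replicate had a peak at another glycolysis gene. Of 70 counts of libraries per gene under an alternative, 59 stayed within 1.5 times. All that did not came from the upper 50% of heights or from equal-length lists, where only the counts of Pgk and Pyk stayed. Leaving out peaks that overlap a control peak could change none, since no window held a control peak.

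For the Hia5 dose relation, placing libraries without a peak at percentile 0 gave r = -0.82 and rho = -0.86 for Tpi (exact permutation, adjusted p = 0.0246 and 0.00863) and, with 2 genes adjusted together, r = -0.72 for Pgk (adjusted p = 0.0320). For Tpi the assigned values fall at 60 U and 200 U, the highest doses, which by itself makes the correlation more negative. Without each 2 U or 6 U replicate the Pgk r ran from -0.721 to -0.700 (exact permutation, adjusted p from 0.0460 to 0.0726), and rho was -0.955 each time. Tpi then had too few libraries and was not tested, so Pgk alone was adjusted for. Chosen after seeing the data, leaving out 20 U, 60 U or 200 U gave r = -0.74, -0.98 and -0.84 for Pgk (exact permutation, adjusted p = 0.0389, 0.00159 and 0.00159), and leaving out 0.6 U gave -0.68 (0.0683). In equal-length lists rho for Pgk was -0.23, and without 200 U as well r and rho were 0.16 and 0.16. Correlations within a library series were not run, as neither held 6 Hia5 libraries. The cause of these changes was not tested.

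For 6 U against 2 U, the Pgk difference was 15.7 in equal-length lists. With the replicate block the differences were unchanged by construction (-3.57, -26.2 and -24.2 for Pgk, Hex-A and Tpi). The exact permutation p was 0.5 for each, the smallest that 2 pairs can give, so that test cannot pass. The differences between replicates at 2 U and at 6 U correlated at 0.0481 over 4919 genes. Many of these genes had no peak at 6 U, so the value cannot decide whether replicate numbers pair the libraries. The enzyme differences at Pgk kept direction in equal-length lists (11.7 for EcoGII, -13.2 for Btr192IV). Hex-A and Tpi could not be tested there. Restricting Hex-A to its left-end site, chosen after seeing the data, changed no call (-22.3 for 6 U against 2 U, 25.1 for EcoGII), and Btr192IV could not be tested, as its 6 U library had no peak there. Depth and the threshold limit what a missing peak can show.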
